A study of Saccharomyces cerevisiae with 6 samples.

Results

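The ammonium permeases MEP1 (YGR121C, chromosome VII), MEP2 (YNL142W, chromosome XIV) and MEP3 (YPR138C, chromosome XVI) of Saccharomyces cerevisiae were examined, 3 genes of the 5449 tested. They were chosen as the 3 symbols of the family in the probe annotation, and each was measured by 1 probe set whose name does not mark it as shared with another gene. Expression was measured on 6 Affymetrix arrays, 2 for each of 3 treatments of 3 hours, in a haploid laboratory strain labelled BY4741 and grown in the rich medium YPD. The groups were 20 µM CID 3528206 (a compound known only by that code), 200 nM rapamycin and 1% DMSO. Rapamycin inhibits TOR complex 1, the kinase complex that couples yeast growth to nutrients. The labels do not say if compound and rapamycin cultures contained the solvent too. They also do not say if duplicates were separate cultures, so the p-values reflect only the spread among these samples. The study set the compound beside rapamycin, and the question here is how the permease genes changed after each treatment and whether they differed between the 2 treatments, whose concentrations differ.

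Ammonium permeases are membrane proteins of the Mep/Amt/Rh family that bring ammonium into the cell as a nitrogen source. Mep2 has the highest affinity for ammonium, Mep1 an intermediate one and Mep3 the lowest, and Mep2 is also described as an ammonium sensor for filamentous growth of diploid yeast. The genes are under nitrogen catabolite repression: with good nitrogen sources the GATA activators Gln3 and Gat1 are held back, and inhibition of TOR complex 1 is known to release them.

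Values are the authors' RMA values on a log2 scale, so a difference of 1 is a change of 2-fold. Each error after ± is limma's standard error of a log2 difference, with n = 2 arrays in each group. Adjusted p-values come from limma and the Benjamini-Hochberg method over all 5449 genes, with 0.05 as the threshold. In bulk cultures a change in RNA per cell and a change in the share of cells that hold the RNA cannot be told apart.

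The strain label was not borne out by its deletion markers: the genes deleted in BY4741 (HIS3, LEU2, MET17 and URA3) lay at log2 levels from 10.39 to 12.11, far above the background of 4.38 described below. The strain is therefore given only as labelled. The 6 genes of a cells, the labelled mating type, lay at 4.89 to 8.24, and 4 genes of alpha cells, the other mating type, at 8.59 to 13.47. All were above that background, but the a cell gene AGA2 was near it, with a DMSO mean of 4.98. The alpha cell range lay wholly above the a cell range. In DMSO each alpha cell gene lay far above background, with means from 10.97 for HMLALPHA1 to 13.41 for MF(ALPHA)1. Such levels do not bear out the labelled a type, though a cell genes were above background too. Levels of different probe sets cannot be compared, so the mating type was not settled and is given only as labelled. Between treatments and DMSO these markers moved in opposite directions beside the permeases. Of the alpha cell genes, 4 of 4 fell after CID 3528206, where 24.4% of all genes fell, and 3 of 4 after rapamycin, where 26.2% did. The pheromone gene MF(ALPHA)2 differed by -3.67 ± 0.15 after the compound and -2.95 ± 0.15 after rapamycin. In the same order the receptor gene STE3 differed by -1.75 ± 0.09 and -1.84 ± 0.09. HMLALPHA1 differed by -0.84 ± 0.08 and -0.62 ± 0.08, and MF(ALPHA)1 by only -0.35 ± 0.09 and -0.06 ± 0.09. Of the a cell genes, 5 of 6 rose after the compound, where 26.1% of all genes rose, and 4 of 6 after rapamycin, where 26.5% did. The receptor gene STE2 was higher by 0.67 ± 0.11 after the compound and 1.09 ± 0.11 after rapamycin. The calls for the a cell gene MFA1 and the alpha cell gene MF(ALPHA)1 after the compound ended without either DMSO array, and that for STE6 without DMSO replicate 2. The call for MFA1 also ended without CID 3528206 replicate 2 and without either rapamycin array. With quantile normalization of the tested genes, the limma calls for MFA1 and STE6 after the compound ended too (adjusted p = 0.355 and 0.225). The part of these markers in the permease results was not tested. One library was unlike the others: on CID 3528206 replicate 1 the 3' probe sets of 7 control genes exceeded their 5' probe sets by 1.69 log2 units, against 0.91 to 1.14 on the other 5 arrays, a sign of RNA quality. Over all genes, replicate differences had an SD of 0.267 log2 units for CID 3528206, 0.122 for rapamycin and 0.123 for DMSO. Some results are also given without replicate 1 of the compound, though not every changed call is listed, and the part of RNA quality was not tested. A fit that leaves a group with 1 array takes its spread from the other groups only. A call kept, gained or lost there says nothing of the spread within that group.

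All 3 permease genes rose after both treatments, MEP2 by far the most, MEP1 less and MEP3 least. MEP2, the high-affinity permease, had log2 levels of 13.46 and 13.40 after CID 3528206, 13.78 and 13.76 after rapamycin, and 8.04 and 8.15 after DMSO. The 4 treated arrays lay above both DMSO arrays by more than 5 log2 units, while the SD within a group was 0.01 to 0.07. MEP1, the permease of intermediate affinity, had levels of 11.72 and 11.57 after CID 3528206, 12.02 and 11.96 after rapamycin, and 9.07 and 8.96 after DMSO. Again no treated array overlapped a DMSO array. MEP3, the permease of lowest affinity, had levels of 12.22 and 12.01 after CID 3528206, 11.90 and 11.86 after rapamycin, and 10.79 and 10.80 after DMSO. Its treated arrays were also all higher than the DMSO arrays. Unlike MEP1 and MEP2, its compound arrays lay above its rapamycin arrays. With 2 arrays in each group, full separation from DMSO also occurred for genes that did not pass. COG2 and FLO8 after rapamycin, described below, were among them, and the share of all genes so separated was not counted.

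**Figure D1:**
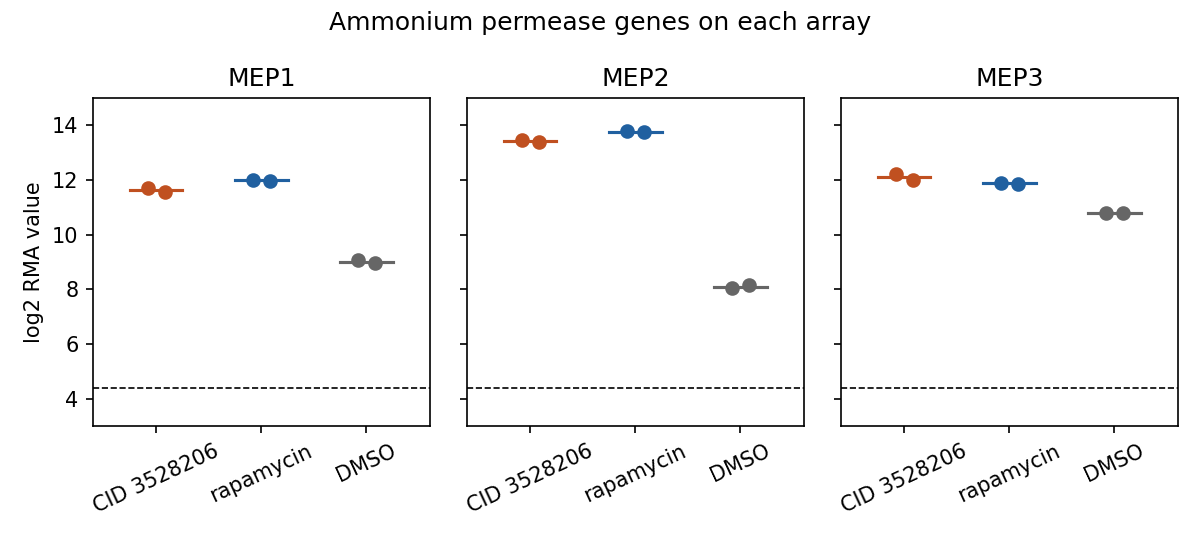
log2 RMA values of MEP1, MEP2 and MEP3 (y axis) on each array, as 1 point per array and a line for the mean of the 2 arrays of each group (x axis); the dashed line is the highest 95th percentile of S. pombe probe sets, 4.38. Levels may be compared within a panel only, and in each panel the 4 treated arrays lie above both DMSO arrays.

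The DMSO levels of all 3 genes were themselves above background. The 95th percentile of 1746 probe sets for the fission yeast Schizosaccharomyces pombe, which is not the yeast studied, lay between 4.27 and 4.38 on the 6 arrays. One of those probe sets is named amt1, the symbol of an ammonium transporter gene in that yeast. It read between 3.49 and 4.02 on the 6 arrays, below that percentile on each. At the other end of the scale, the highest value of any probe set was between 14.81 and 14.87 on the 6 arrays, 1 log2 unit or more above MEP2 after either treatment.

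After CID 3528206, MEP2 was 40.4-fold higher than after DMSO (log2 difference 5.34 ± 0.07, adjusted p = 1.58e-06), with a 95% interval of 35.8-fold to 45.5-fold. MEP1 was 6.2-fold higher (2.63 ± 0.08, interval 5.4-fold to 7.12-fold, adjusted p = 1.58e-05). MEP3 was 2.49-fold higher (1.31 ± 0.09, interval 2.15-fold to 2.88-fold, adjusted p = 0.000157). All 3 genes were called higher, where 26.1% of the 5449 genes tested were called higher, and all 3 were changed at least 2-fold, where 5.01% of genes were. The rise of MEP2 was the largest of all 5449 genes, and by the same order MEP1 was 21st and MEP3 159th. Without replicate 1 of the compound the log2 differences were 5.31 for MEP2, 2.56 for MEP1 and 1.21 for MEP3.

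After rapamycin, MEP2 was 51.1-fold higher than after DMSO (5.68 ± 0.07, interval 45.3-fold to 57.6-fold, adjusted p = 1.08e-06). MEP1 was 7.85-fold higher (2.97 ± 0.08, interval 6.83-fold to 9.02-fold, adjusted p = 6.48e-06) and MEP3 2.12-fold higher (1.08 ± 0.09, interval 1.83-fold to 2.45-fold, adjusted p = 0.000234). All 3 were called higher, where 26.5% of genes were, and all 3 at least 2-fold, where 5.98% were. MEP2 again had the largest rise of the 5449 genes, with MEP1 32nd and MEP3 294th. The median log2 difference over all genes was -0.01 for CID 3528206 and -0.02 for rapamycin. Both comparisons use the same 2 DMSO arrays, so an error in those arrays enters both.

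Between the treatments, MEP1 and MEP2 were slightly lower after the compound than after rapamycin. MEP2 was 1.27-fold lower after CID 3528206 (-0.34 ± 0.07, adjusted p = 0.0263) and MEP1 also 1.27-fold lower (-0.34 ± 0.08, adjusted p = 0.0385). For MEP3 the difference was 0.23 ± 0.09 in the other direction and missed the threshold (adjusted p = 0.11), with a 95% interval of 0.02 to 0.44 log2 units. In this comparison 9.43% of genes were called lower and 9.32% higher, and MEP1 and MEP2 stood 623rd and 626th from the lowest of 5449 differences, well inside the spread of all genes. Without CID 3528206 replicate 1 the differences were -0.41 for MEP1 and -0.37 for MEP2. Both calls ended without either rapamycin array or without either DMSO array (adjusted p up to 0.207 for MEP1 and 0.17 for MEP2). The difference of MEP3 was 0.13 without CID 3528206 replicate 1 and 0.34 without CID 3528206 replicate 2.

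**Figure D2:**
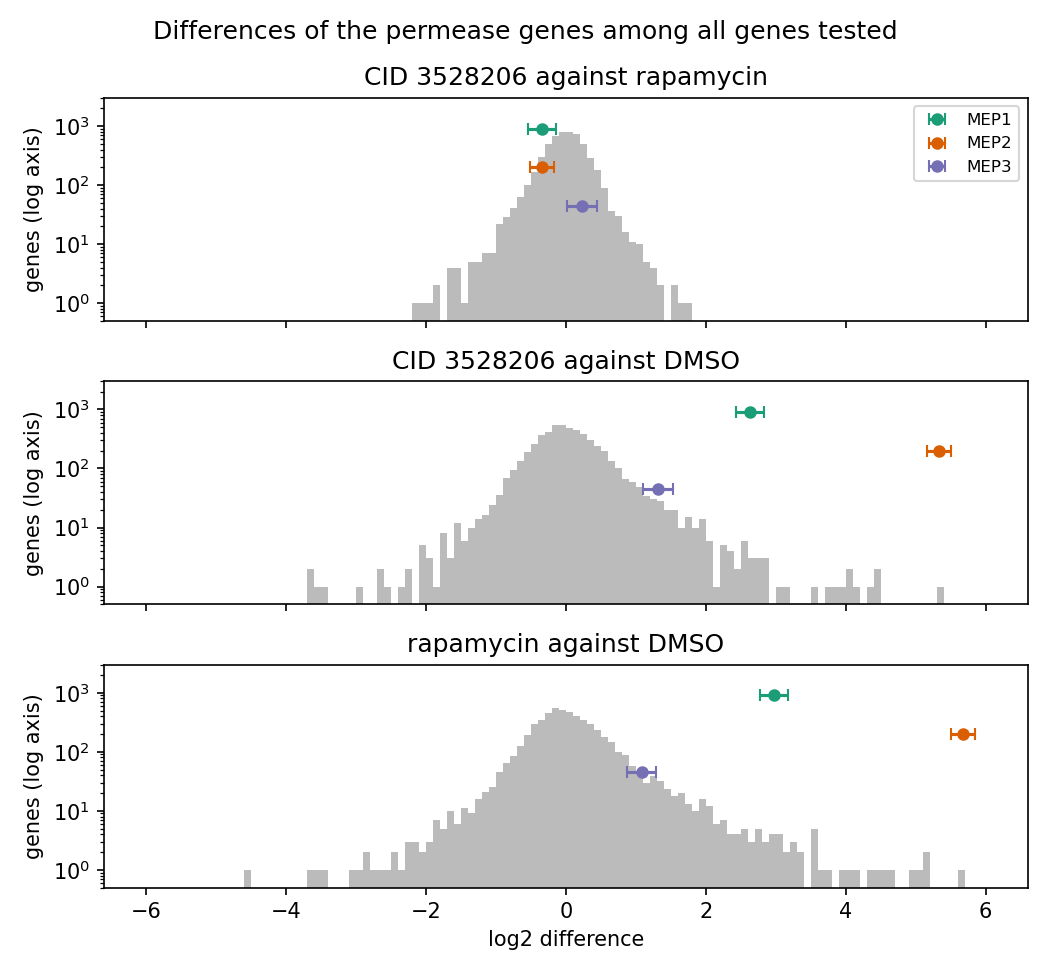
Histograms of the log2 difference (x axis) of 5449 genes in each comparison, with the number of genes on a log axis; coloured points give MEP1, MEP2 and MEP3 with 95% intervals from limma, and their height in the panel has no meaning. Against DMSO, MEP2 lies at 5.34 for CID 3528206 and 5.68 for rapamycin, at the right end of all genes, while between the treatments all 3 genes lie among the bulk.

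The spacing between the family members was then followed within each array, as a difference of log2 values whose own level has no meaning across probe sets but whose shift between groups does. The value of MEP2 minus MEP1 was 1.74 and 1.83 on the CID 3528206 arrays, 1.76 and 1.81 on the rapamycin arrays and -1.02 and -0.81 on the DMSO arrays. MEP2 had thus risen by 2.70 log2 units more than MEP1 after either treatment, and the treated arrays interleave. The value of MEP1 minus MEP3 was -0.50 and -0.43 on the CID 3528206 arrays, 0.11 and 0.10 on the rapamycin arrays and -1.73 and -1.84 on the DMSO arrays. Here all 3 groups were apart, with MEP1 gaining 1.32 log2 units on MEP3 after the compound and 1.89 after rapamycin. MEP2 gained 4.02 log2 units on MEP3 after the compound and 4.59 after rapamycin. An exact permutation test of 2 arrays against 2 cannot go below p = 0.333 two-sided, so these shifts are given as values: p was 0.333 for each of the 9 shifts but MEP2 minus MEP1 between the treatments, where it was 1.

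The genes whose course over the 6 arrays lay closest to each permease were found by the root mean square distance between log2 values, each gene taken relative to its own DMSO mean. This distance also reflects the size of the change. The closest to MEP1 were AGP1, a broad amino acid permease, at 0.067 log2 units, the spore wall gene LDS2 at 0.164, the mitochondrial citrate synthase gene CIT3 at 0.181, the dicarboxylic amino acid permease gene DIP5 at 0.19 and MOH1 at 0.206. No tested gene lay that close to MEP2, which had the largest rise of all genes after both treatments. Its nearest were DAL3 of allantoin breakdown at 0.616, the glutamate dehydrogenase gene GDH3 at 0.642, the urea transporter gene DUR3 at 0.859, the general amino acid permease gene GAP1 at 0.891 and the carnitine carrier gene CRC1 at 0.895. Their Pearson r with MEP2 over the 6 arrays was 0.985 to 0.999. The closest to MEP3 were GDE1, which encodes a glycerophosphocholine phosphodiesterase, at 0.074, the metal-transporting ATPase gene PCA1 at 0.077, AGP2 of the plasma membrane at 0.088, the isocitrate dehydrogenase gene IDP1 at 0.093 and UGA1 of GABA use at 0.096. No member was among the 5 genes closest to another member. MEP1 lay at 2.21 from MEP2 and 1.33 from MEP3, and MEP2 at 3.53 from MEP3.

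Other permeases under nitrogen catabolite repression rose as well, and were lower after the compound than after rapamycin. After CID 3528206, 8 of 8 rose and 0 fell, from DAL4 of allantoin uptake (1.30 ± 0.10) to DUR3 of urea uptake (4.04 ± 0.13), with a median of 2.55, where 26.1% of all genes rose. After rapamycin, where 26.5% of all genes rose, 8 of 8 rose and 0 fell, from DAL4 (2.03 ± 0.10) to GAP1 (5.10 ± 0.08), with a median of 3.42. The limma counts of falls were also 0 at an unadjusted p under 0.05, where 24.4% of all genes fell after the compound and 26.2% after rapamycin at the adjusted threshold. Between the treatments 8 of 8 were lower after the compound, where 9.43% of all genes were, from DIP5 (-0.38 ± 0.08, adjusted p = 0.0261) to the allantoate permease gene DAL5 (-1.40 ± 0.11, adjusted p = 0.00259), with a median of -0.84 where the median of all genes was -0.00295. The difference between the treatments was -1.20 ± 0.08 for GAP1 and -1.27 ± 0.07 for the proline permease gene PUT4. For AGP1 (-0.43 ± 0.06) and DIP5 it was close to the -0.34 of MEP1 and MEP2. Without either rapamycin array the calls of all but GAP1, DAL5 and PUT4 ended.

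**Figure D3:**
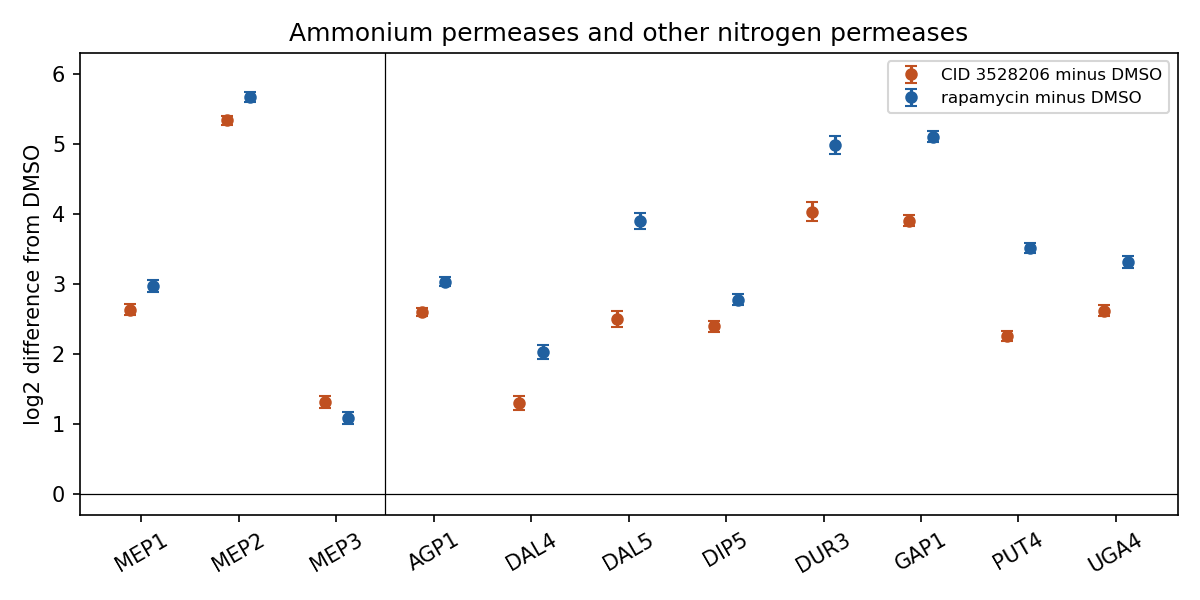
log2 differences from DMSO (y axis) of the 3 ammonium permease genes and, right of the vertical line, 8 other permease genes under nitrogen catabolite repression, after CID 3528206 and after rapamycin; points are limma estimates and bars standard errors, with 2 arrays per group. The rapamycin point is above the compound point for each gene but MEP3. Compound minus rapamycin is -0.34 for MEP1 and MEP2, and from -0.38 for DIP5 to -1.40 for DAL5 in the other permease genes.

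Among 13 regulators of the permeases, 7 rose and 0 fell after CID 3528206, and 7 rose and 0 fell after rapamycin, with 0 falls by limma at an unadjusted p under 0.05 in both. Of all genes, 26.1% rose and 24.4% fell after the compound, and 26.5% rose and 26.2% fell after rapamycin. The number that rose after the compound was larger without CID 3528206 replicate 1, as it was over all genes. The same held after rapamycin, where the compared values do not change and only the pooled spread does. Some regulators fell after the compound without replicate 2, where the number of falls over all genes was also larger. The median log2 difference was 0.50 after the compound and 0.34 after rapamycin. Of the transcription factors, the repressor gene DAL80 differed most between treatments: it rose by 2.50 ± 0.16 after CID 3528206 and by 4.70 ± 0.16 after rapamycin, with a difference of -2.19 ± 0.16 between compound and rapamycin (adjusted p = 0.00259). The activator gene GAT1 rose by 1.84 ± 0.17 after the compound and 2.27 ± 0.17 after rapamycin, the activator gene GLN3 by 0.75 ± 0.07 and 0.82 ± 0.07 in the same order, and the repressor gene GZF3 by 1.11 ± 0.10 and 1.57 ± 0.10. URE2, whose product holds Gln3 in the cytoplasm, differed by -0.10 ± 0.11 after the compound and 0.15 ± 0.11 after rapamycin, and neither passed.

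The proteins that act on the permeases themselves gave a mixed picture. NPR1, the kinase that keeps Mep2 active and is itself restrained by TOR complex 1, rose by 1.12 ± 0.08 after CID 3528206 and by 1.55 ± 0.08 after rapamycin. PAR32, a target of Npr1 whose product inhibits Mep1 and Mep3, differed by 0.12 ± 0.18 after the compound and 0.07 ± 0.18 after rapamycin, and neither passed (adjusted p = 0.612 and 0.767). Its value after the compound rests on single arrays, at 0.42 without CID 3528206 replicate 1 and -0.18 without replicate 2. The phosphatase gene SIT4, its partner gene TAP42 and the kinase gene TOR1 did not pass after either treatment. Single compound arrays changed their calls after the compound and that of URE2. Without CID 3528206 replicate 1 TAP42 differed by 0.19 after the compound. Without replicate 2 TOR1 differed by 0.24, SIT4 by -0.89 and URE2 by -0.26. NPR2, of the complex that restrains TOR complex 1, rose by 0.50 ± 0.09 after the compound and 0.43 ± 0.09 after rapamycin. Its calls ended without DMSO replicate 2 in both (adjusted p = 0.0522 and 0.0748) and, after rapamycin, without rapamycin replicate 2. NPR3 of the same complex differed by 0.19 ± 0.08 after the compound, which did not pass, and rose by 0.34 ± 0.08 after rapamycin. TOR2 rose by 0.51 ± 0.13 after the compound (0.33 without CID 3528206 replicate 1) and differed by 0.30 ± 0.13 after rapamycin, which did not pass. Neither NPR3 nor TOR2 was called different between the treatments (adjusted p = 0.25 and 0.255). There TOR2 differed by 0.40 without CID 3528206 replicate 2. The call for NPR3 ended without either DMSO array or without rapamycin replicate 1 (adjusted p up to 0.124), and that for TOR2 without either DMSO array (adjusted p up to 0.0899). Between the treatments DAL80, NPR1 and GZF3 were lower after the compound, and NPR1 and GZF3 lost the call without any single rapamycin or DMSO array (adjusted p up to 0.137 for NPR1 and 0.184 for GZF3). The number of regulators called lower was smaller in each of those cases and larger without CID 3528206 replicate 2, as it was over all genes. PAR32 differed by 0.35 between the treatments without CID 3528206 replicate 1.

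Of 5 genes for enzymes that build ammonium into amino acids or release it, 4 rose after CID 3528206, where 26.1% of all genes did, and 5 after rapamycin, where 26.5% did. In either comparison 0 fell, also by limma at an unadjusted p under 0.05, where 24.4% of all genes fell after the compound and 26.2% after rapamycin. The NADP-dependent glutamate dehydrogenase gene GDH3 rose 22-fold after the compound and 32.1-fold after rapamycin, and its paralog GDH1 2.93-fold and 2.97-fold in the same order. The glutamate synthase gene GLT1 rose by 1.22 ± 0.11 after the compound and 1.24 ± 0.11 after rapamycin, and GDH2, the dehydrogenase that releases ammonium from glutamate, by 1.56 ± 0.15 and 1.77 ± 0.15. GLN1, which encodes glutamine synthetase, differed by 0.11 ± 0.06 after the compound (adjusted p = 0.174) and rose by 0.26 ± 0.06 after rapamycin (adjusted p = 0.0153), a call that ended without any single rapamycin or DMSO array (adjusted p up to 0.108). The difference of GDH3 between compound and rapamycin was -0.54 ± 0.09 (adjusted p = 0.0134), a call that ended without either rapamycin array (adjusted p up to 0.113). The other 4 did not pass, with GDH2 at -0.42 without CID 3528206 replicate 1.

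The ATO genes encode membrane proteins linked to the export of ammonia and the uptake of acetate. ADY2 rose 7.13-fold after CID 3528206 and 20.6-fold after rapamycin, with a difference of -1.53 ± 0.12 between compound and rapamycin (adjusted p = 0.00259). ATO2 rose 2.26-fold after the compound and 5.79-fold after rapamycin, with a difference between them of -1.36 ± 0.12 (adjusted p = 0.00322). ATO3 rose by 0.30 ± 0.09 after the compound and 0.37 ± 0.09 after rapamycin, calls that ended without DMSO replicate 1 (adjusted p = 0.181 and 0.0987) and without either rapamycin array. The call after the compound also ended without DMSO replicate 2.

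Of 20 measured genes of pseudohyphal growth signalling, the programme in which Mep2 acts as a sensor, 7 rose, 4 fell and 9 did not pass after CID 3528206, and 7 rose, 4 fell and 9 did not pass after rapamycin. Of all genes, 26.1% rose and 24.4% fell after the compound and 26.5% rose and 26.2% fell after rapamycin. The median difference of the list was 0.06 after the compound and 0.12 after rapamycin. FLO8 differed by 0.002 ± 0.12 after the compound and -0.11 ± 0.12 after rapamycin, and neither passed. FLO11, the surface flocculin of filamentous cells, rose 4.72-fold after the compound and 2.56-fold after rapamycin, with levels of 8.62 and 7.93 after the compound, 7.49 and 7.29 after rapamycin and 6.21 and 5.86 after DMSO. Its difference between compound and rapamycin was 0.88 ± 0.24 and missed the threshold (adjusted p = 0.0505). It was 0.54 without CID 3528206 replicate 1 and 1.23 without replicate 2. Between the treatments 0 genes of the list were called higher by limma after the compound (1 at an unadjusted p under 0.05), where 9.32% of all genes were, and 3 lower, where 9.43% were. The 3 were the transcription factor genes TEC1 (-0.69 ± 0.09, adjusted p = 0.00754), ASH1 (-0.36 ± 0.06, adjusted p = 0.017) and STE12 (-0.26 ± 0.06, adjusted p = 0.0398). None of these 3 calls held without either rapamycin array, and those of ASH1 and STE12 also ended without either DMSO array (adjusted p up to 0.241). Without either compound array more genes of the list were called between the treatments, as was so over all genes. MGA1, a heat shock factor-like gene of filamentation, fell by 2.20 after the compound and fell by 1.88 after rapamycin on the log2 scale. GPA2, the G protein subunit that acts beside Mep2, fell by 0.71 after the compound and fell by 0.41 after rapamycin, and its receptor gene GPR1 rose by 0.58 ± 0.07 and 0.52 ± 0.07. The call for GPA2 after rapamycin ended without rapamycin replicate 1 or DMSO replicate 2 (adjusted p up to 0.0775). The number of genes of this list that rose after the compound was smaller without either DMSO array, as it was over all genes.

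Potassium transporters, through which ammonium can leak into cells short of potassium, showed small differences. After CID 3528206, 3 of 3 passed: TRK1 rose by 0.27 ± 0.07, TRK2 by 0.52 ± 0.13 and the channel gene TOK1 by 0.64 ± 0.14, and none of the 3 passed without either DMSO array. Of all genes 26.1% rose. The value of TRK2 was 0.33 without CID 3528206 replicate 1. Between compound and rapamycin TRK2 differed by 0.51 ± 0.13 (adjusted p = 0.0426), where 9.32% of all genes were called higher. Its value was 0.32 without CID 3528206 replicate 1, and the call ended without any single rapamycin or DMSO array. In this comparison TOK1 differed by 0.57 without CID 3528206 replicate 2. After rapamycin 0 of 3 passed by limma, where 26.5% of all genes rose and 26.2% fell, with 1 at an unadjusted p under 0.05. More of the 3 passed without either compound array, as was so over all genes. The largest difference of a potassium transporter after rapamycin was 0.27 ± 0.14 for TOK1.

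By the order of the R64 annotation, the nearest tested genes on each side of MEP1 and MEP3 gave no rise. Those beside MEP2 gave a far smaller rise than the permease. Beside MEP1, YGR121W-A fell by 0.34 after CID 3528206 (SE 0.10, adjusted p = 0.0334) and fell by 0.91 after rapamycin (adjusted p = 0.000795). On its other side, beyond a tRNA gene not analysed here, lay COG2, a Golgi tethering subunit. COG2 differed by -0.34 ± 0.10 after the compound (adjusted p = 0.0292, and -0.21 without CID 3528206 replicate 1) and -0.15 ± 0.10 after rapamycin (adjusted p = 0.236). The calls of both after the compound ended without either DMSO array (adjusted p up to 0.15 for YGR121W-A and 0.13 for COG2), that for COG2 also without either rapamycin array, and that for YGR121W-A also without CID 3528206 replicate 2 (adjusted p = 0.0632). Without either compound array COG2 passed after rapamycin (adjusted p = 0.0419). Beside MEP2, the adenine deaminase gene AAH1 rose by 0.83 ± 0.12 after the compound and 0.56 ± 0.12 after rapamycin, and the rapamycin call ended without rapamycin replicate 1 (adjusted p = 0.0523). On the other side the nearest gene tested was the a-factor gene MFA2, beyond 2 open reading frames not analysed here, and it rose by 1.03 ± 0.15 after the compound and 1.28 ± 0.15 after rapamycin. Beside MEP3, LOA1 of lipid synthesis fell by 0.78 after the compound and fell by 0.56 after rapamycin. On the other side the nearest gene tested was the rRNA processing gene RRP9, beyond a tRNA gene and 2 open reading frames not analysed here. RRP9 differed by -0.01 ± 0.08 after the compound and -0.04 ± 0.08 after rapamycin and did not pass.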

How the data were processed

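Per the submitters' processing notes the authors used RMA, a method that removes background, equalises array distributions and combines the probes of a set, and the deposited values are log2. Its software and parameters were not given in the sources used here. In all, the table held 10928 probe sets. The 5498 that the probe table ties to 1 S. cerevisiae gene gave 5449 genes, with the probe set of highest mean where a gene had several; symbols follow assembly R64. limma 3.58.1 (R 4.3.3) was run on the 6 arrays together, 1 mean for each group, two-sided, with 3 residual degrees of freedom, and was tested on simulated data. The errors rest on a spread pooled over groups, and the number of arrays limits the precision. Members, lists and rules were chosen with earlier results of these data known. Named genes are the members, genes of 6 lists, the 5 closest genes per member and the neighbours, taken as the nearest genes with a tested probe set; strain and mating-type markers are given as ranges and counts, with those named chosen after their values were seen. Each of 17 alternatives changed 1 choice. Promoter motifs and protein identities were planned and not analysed here.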

Additional observations from a re-analysis of the deposited data

How the results depend on the processing

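Under all 17 alternatives MEP1, MEP2 and MEP3 remained called higher after each treatment than after DMSO. The log2 difference of MEP2 ranged from 5.22 to 5.39 for CID 3528206 and from 5.62 to 5.73 for rapamycin, that of MEP1 from 2.54 to 2.70 and from 2.92 to 3.03, and that of MEP3 from 1.21 to 1.42 and from 1.06 to 1.10. Between the treatments the differences of MEP1 (-0.34) and MEP2 (-0.34) no longer passed with all probe sets tested or with only the 4 arrays of the comparison, and without single arrays they ranged from -0.41 to -0.27 and from -0.37 to -0.31. MEP3 ranged from 0.13 to 0.34 without single arrays, and was called higher after the compound in 1 of the 17 alternatives. With the replicate number as a block the 3 differences were -0.34, -0.34 and 0.23 with adjusted p = 0.0187, 0.0242 and 0.0783, and the block changed no call of the 3 genes. The differences between replicates 1 and 2 correlated across genes by 0.25 to 0.43 between groups, and the labels do not say that a number marks a shared batch.

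Counts over all genes moved more. Without single arrays, genes called higher and lower ranged from 961 to 1821 and from 795 to 1877 for rapamycin against DMSO, from 883 to 1757 and from 670 to 1795 for CID 3528206 against DMSO, and from 41 to 1243 and from 53 to 1403 for CID 3528206 against rapamycin. With the lowest of 3 equal groups of genes by mean left out, 949 genes were called higher after rapamycin. Between the treatments the counts higher and lower were 197 and 212 with all probe sets, 183 and 214 with only the 4 arrays, and 989 and 899 with the 3' to 5' difference as a covariate, against 508 and 514. The cause of these shifts was not tested. RRP9, never past the threshold, changed sign: against DMSO its difference after the compound was -0.01 and ranged from -0.084 to 0.056 without single arrays, with 0.061 under the covariate, and against rapamycin it was 0.03 and ranged from -0.042 to 0.098, with -0.000095 without rapamycin replicate 1.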
